A study of Mus musculus with 4 samples.

Results

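The genes described here are 10 genes of the STAT3 pathway: the transcription factor Stat3 itself, 4 receptor chains that activate it (Il6st, Il6ra, Lifr and Osmr), the feedback inhibitor Socs3, and the early target genes Junb, Cebpd, Bcl3 and Pim1. They were chosen by gene symbol and are read by 13 probes (22 spots), out of 22328 genes and 55681 probes on the array. RNA was measured on 1 single-colour array for each of 4 cultures of p53-/- mouse neural stem cells derived from E14.5 embryonic brain, all grown without serum. NSCL61-Ceacam1sh were cells of the NSCL61 line with a short hairpin RNA against Ceacam1, and NSCL61 were cells of that line alone. NSCL61 is known to initiate gliomas and was derived by putting an activated Ras into p53-null neural stem cells. NSC-Ceacam1L were neural stem cells given Ceacam1L, the long isoform of a cell adhesion protein of the immunoglobulin family, and NSC were neural stem cells with no Ceacam1L named in their label. The labels give expression vector transfection and 1 week of hygromycin for all 4 groups, but name no vector for NSCL61 and NSC and do not say how many clones or cultures each RNA came from.

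Cytokines of the interleukin-6 family bind a specific receptor chain that pairs with Il6st, the shared signalling chain. JAK kinases on these chains then phosphorylate STAT3, which enters the nucleus and turns on its target genes. In embryonic neural precursors, signals of this kind through LIF and CNTF are known to promote astrocyte differentiation, and active STAT3 is a known feature of glioblastoma-initiating cells. The study is known for linking Ceacam1L to STAT3 signalling in such cells, and the arrays compare gain of Ceacam1L in NSC, the hairpin in NSCL61, and the tumour line with NSC. RNA levels do not measure STAT3 phosphorylation.

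Levels are log2 signals in which 0 is the 75th percentile of that array's signals, so a level is compared only between arrays for the same probe. A difference of 2-fold or more (1.0 on the log2 scale) put a gene among those higher or lower, provided that the brighter array's signal was well above background. The error after ± is the scanner software's model error for the spots. Each group had 1 array, so no difference has a replicate check and no p-value is given. Between 62.7% and 67.2% of genes were well above background on each array, and the 4 arrays lay on 1 slide. No probe was named for Ceacam1, so the manipulated gene could not be checked, and groups are named as the arrays were labelled. The labelled cell type was checked against 10 neural stem and radial glia markers, whose summed scaled signal was 37.7 on NSCL61-Ceacam1sh, 522 on NSCL61, 535 on NSC-Ceacam1L and 745 on NSC. On NSCL61-Ceacam1sh, Hes5 was not well above background, and Fabp7 was at -4.00, against 8.36 on NSCL61. All 10 of these markers were well above background on NSC-Ceacam1L and NSC, and Prom1 was not on NSCL61.

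**Figure D1:**
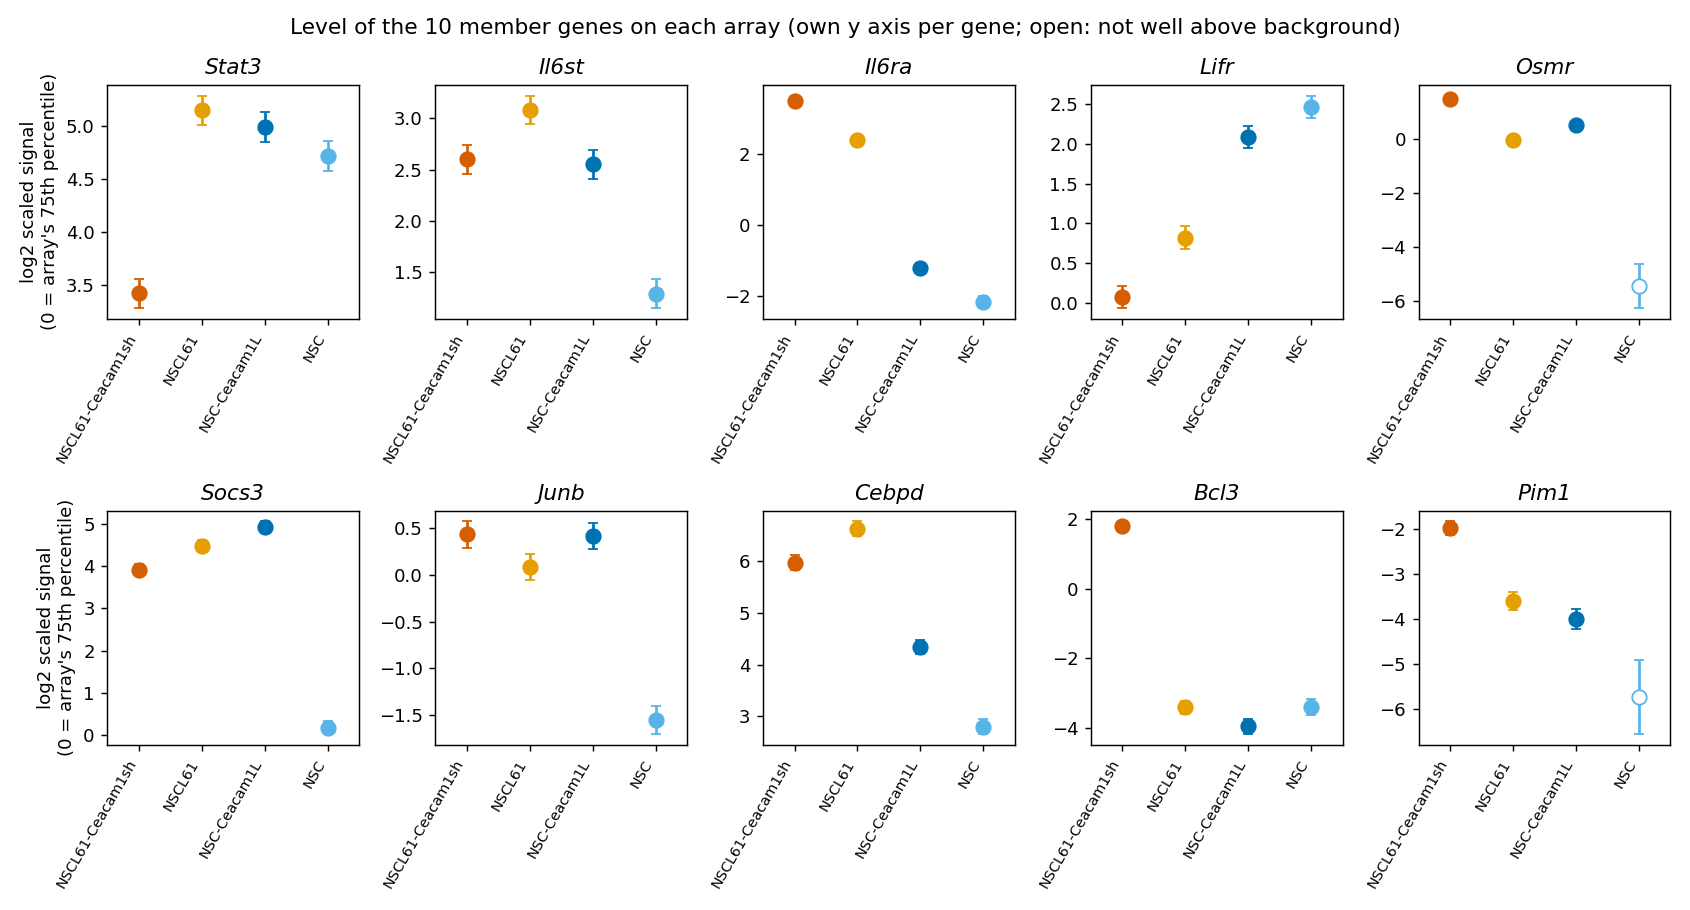
Level of each of the 10 genes on the 4 arrays, as log2 scaled signal with its own vertical axis per gene. Points are single arrays, bars are the modelled spot error, and open points were not well above background. NSC is the lowest of the 4 arrays for Il6st, Il6ra, Osmr, Socs3, Junb, Cebpd and Pim1, and the highest for Lifr.

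Stat3, the transcription factor, differed little between the NSC arrays and was lower with the hairpin. Its main probe (chr11:100749598-100749657, minus strand, mm9), printed 10 times, gave 3.42 on NSCL61-Ceacam1sh, 5.15 on NSCL61, 4.99 on NSC-Ceacam1L and 4.72 on NSC. NSCL61-Ceacam1sh was thus the lowest array, and the gap between NSCL61 and NSC-Ceacam1L (0.17) lay within its modelled error of 0.20. That error is for an average single spot on each array and not for the mean of 10 spots. Over the 10 spots the SD was 0.053, 0.050, 0.051 and 0.087 in the same order of arrays. The difference was -1.74 ± 0.20 for NSCL61-Ceacam1sh minus NSCL61 (3.33-fold lower), 0.26 ± 0.20 for NSC-Ceacam1L minus NSC, and 0.43 ± 0.20 for NSCL61 minus NSC. Of the 15616 genes seen on NSCL61-Ceacam1sh or NSCL61, 70.9% had a hairpin difference smaller in size than that of Stat3.

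A separate Stat3 probe, at another position in the gene (chr11:100759946-100760005, minus strand, mm9), read a different stretch of its transcripts. It gave -2.17 on NSCL61-Ceacam1sh, -0.39 on NSCL61, -0.65 on NSC-Ceacam1L and -1.08 on NSC. The order of the arrays was the same as for the main probe, and the gap between NSCL61 and NSC-Ceacam1L (0.26) exceeded its modelled error of 0.21. The differences were -1.78 ± 0.21 for NSCL61-Ceacam1sh minus NSCL61, 0.43 ± 0.21 for NSC-Ceacam1L minus NSC and 0.69 ± 0.21 for NSCL61 minus NSC.

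Among the receptor chains, Il6st, the signal-transducing chain shared by the family, was higher on NSC-Ceacam1L and on NSCL61 than on NSC. Its probe (chr13:113296586-113296645, plus strand, mm9) gave 2.60 on NSCL61-Ceacam1sh, 3.08 on NSCL61, 2.55 on NSC-Ceacam1L and 1.29 on NSC. NSC stood below the other arrays, and NSCL61-Ceacam1sh and NSC-Ceacam1L differed by 0.05, within the modelled error. NSC-Ceacam1L minus NSC was 1.26 ± 0.20 (2.40-fold), and NSCL61 minus NSC was 1.80 ± 0.20 (3.48-fold). With the hairpin the difference was -0.49 ± 0.20, within 2-fold.

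Il6ra, the ligand-binding chain for interleukin-6, separated the NSCL61 arrays from the NSC arrays. Its probe (chr3:89674054-89674113, minus strand, mm9) gave 3.49 on NSCL61-Ceacam1sh, 2.38 on NSCL61, -1.21 on NSC-Ceacam1L and -2.17 on NSC. The gap between the lower NSCL61 array and the higher NSC array was 3.59 ± 0.21. NSCL61 exceeded NSC by 4.55 ± 0.22, or 23.4-fold, a larger size than for 97.6% of 15307 genes. The hairpin difference was 1.11 ± 0.20, which was 0.90 with quantile normalization. The Ceacam1L difference was 0.96 ± 0.22 (1.94-fold), which was 1.03 with median scaling and 1.00 with quantile normalization.

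Osmr, the oncostatin M receptor chain, was well above background on every array except NSC. Its probe (chr15:6763686-6763745, minus strand, mm9) gave 1.46 on NSCL61-Ceacam1sh, -0.05 on NSCL61, 0.50 on NSC-Ceacam1L and -5.47 on NSC. For such a probe the bright array was set against the lowest signal that counted as well above background on NSC (-4.27). This makes the fold a lower bound under the main background correction only. The same limit applies to every other fold given as at least. Osmr was at least 27.2-fold higher on NSC-Ceacam1L than on NSC and at least 18.6-fold higher on NSCL61 than on NSC. With normexp background correction these differences were 3.20 and 2.71, below those bounds and past 2-fold. It was also higher on NSCL61-Ceacam1sh than on NSCL61, by 1.51 ± 0.20 (2.85-fold), so both Ceacam1 comparisons went the same way.

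Lifr, the receptor chain for LIF, was the one gene of the 10 with its highest level on NSC by its brightest probe. That probe (A_55_P2159259, chr15:7147319-7147378, plus strand, mm9) gave 0.07 on NSCL61-Ceacam1sh, 0.82 on NSCL61, 2.09 on NSC-Ceacam1L and 2.47 on NSC. Each step between neighbouring arrays was larger than its modelled error of 0.20. NSCL61 minus NSC was -1.65 ± 0.20 (3.14-fold lower), NSC-Ceacam1L minus NSC was -0.38 ± 0.20 and NSCL61-Ceacam1sh minus NSCL61 was -0.74 ± 0.20.

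The 3 Lifr probes did not give the same hairpin difference. The probe A_55_P2159264 (chr15:7135072-7135131) gave -0.50 on NSCL61-Ceacam1sh and -2.84 on NSCL61, a difference of 2.34 ± 0.22, or 5.06-fold higher. The probe A_51_P113182 (chr15:7141150-7141209) gave -3.02 on NSCL61-Ceacam1sh and -3.15 on NSCL61, a difference of 0.13 ± 0.25. Against NSC, the same probes were alike: NSCL61 was lower by -1.74 ± 0.22 and -1.84 ± 0.23, and NSC-Ceacam1L by -0.79 ± 0.21 and -0.73 ± 0.21. The file lists the discordant probe under a different Lifr transcript from the other probes, so Lifr with the hairpin has no single direction over its probes.

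**Figure D2:**
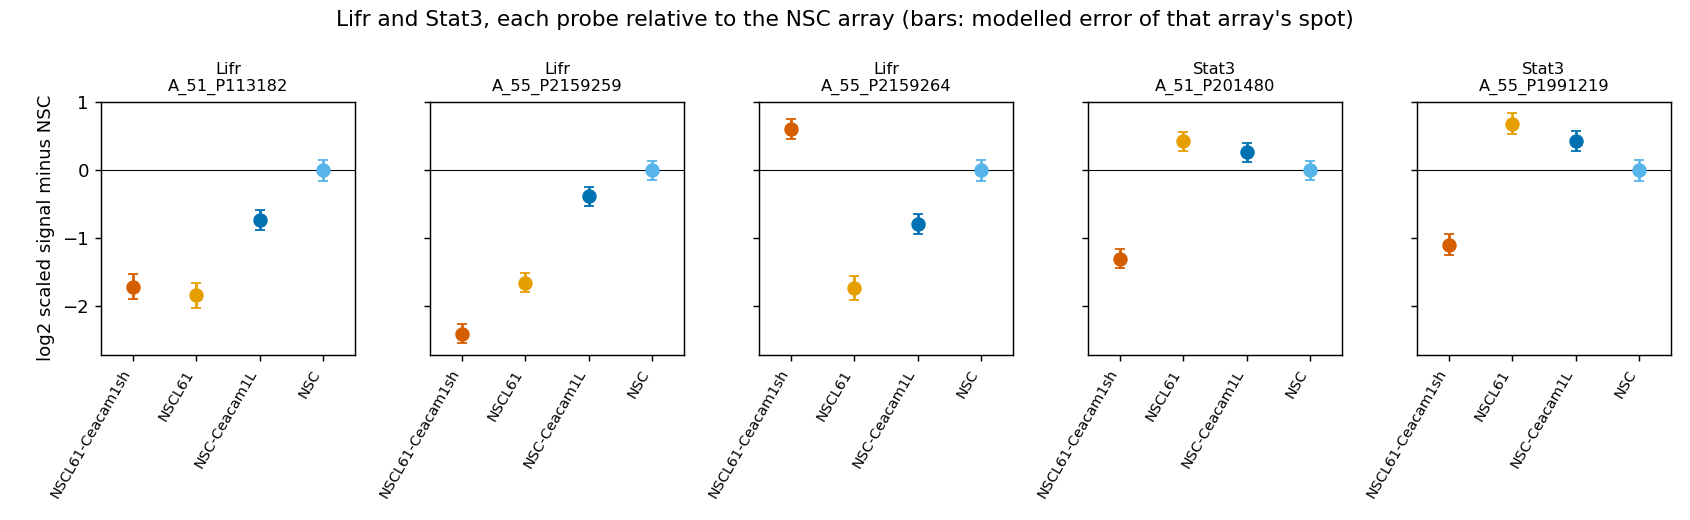
Log2 scaled signal of each Lifr and Stat3 probe minus its value on NSC, on the 4 arrays, with bars for the modelled spot error of that array. The 2 Stat3 probes run alike, whereas the Lifr probe A_55_P2159264 alone lies above NSC on NSCL61-Ceacam1sh.

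Socs3, which STAT3 induces and which in turn blocks signalling at Il6st, had the largest Ceacam1L difference of the 10 genes among those well above background on both arrays. Its probe (chr11:117827480-117827539, minus strand, mm9) gave 3.92 on NSCL61-Ceacam1sh, 4.48 on NSCL61, 4.92 on NSC-Ceacam1L and 0.18 on NSC. NSC stood alone: it lay 3.74 ± 0.20 below NSCL61-Ceacam1sh, while neighbouring arrays above it were 0.56 and 0.44 apart. Unscaled signals were 8191 on NSCL61-Ceacam1sh, 9784 on NSCL61, 17312 on NSC-Ceacam1L and 543 on NSC. NSC-Ceacam1L exceeded NSC by 4.74 ± 0.20 (26.8-fold), more in size than 99.2% of the 15322 genes seen, and NSCL61 exceeded NSC by 4.30 ± 0.20 (19.7-fold). The hairpin array was -0.56 ± 0.20 from NSCL61, within 2-fold.

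The Socs3 promoter is shown because Socs3 is the best known direct STAT3 target among these genes. The sequence is the 250 bases before the transcription start in RefSeq (chr11:117969367-117969616, minus strand, GRCm38.p6), with a match to the STAT motif TTCNNNGAA in capitals:
Socs3 promoter: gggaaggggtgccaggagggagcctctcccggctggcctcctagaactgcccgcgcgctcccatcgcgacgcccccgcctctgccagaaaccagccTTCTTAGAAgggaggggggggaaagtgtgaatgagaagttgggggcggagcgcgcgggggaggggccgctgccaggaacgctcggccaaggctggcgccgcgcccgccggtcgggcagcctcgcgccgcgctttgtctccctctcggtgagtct
The match covers bases 154 to 146 before the start. The motif reads the same on both strands and includes the STAT3-preferred form TTCCNGGAA, which was searched too. RefSeq windows (250 bases before to 50 after a start) were found for 9 of the 10 genes, 11 windows in all. Cebpd had none, so its promoter was not searched. TTCNNNGAA was in 1 window, that of Socs3, and TTCCNGGAA in 0. Of all 32851 windows, 8.30% held TTCNNNGAA and 1.15% held TTCCNGGAA, so 1 of 11 is close to the general share. Matches of these letters are a description and not evidence of binding.

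Of the early targets, Junb, an AP-1 subunit, was lowest on NSC. Its probe (chr8:87501881-87501940, minus strand, mm9) is shown with that of Pim1 as the sequence each value was read by:
Junb probe A_55_P2011106: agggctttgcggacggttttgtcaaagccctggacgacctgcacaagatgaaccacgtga
Pim1 probe A_52_P530291: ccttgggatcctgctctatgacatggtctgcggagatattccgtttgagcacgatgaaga
Junb gave 0.43 on NSCL61-Ceacam1sh, 0.08 on NSCL61, 0.41 on NSC-Ceacam1L and -1.55 on NSC. The NSCL61-Ceacam1sh and NSC-Ceacam1L values lay within the modelled error of each other. NSC-Ceacam1L minus NSC was 1.96 ± 0.21 (3.88-fold), NSCL61 minus NSC was 1.63 ± 0.21 (3.09-fold), and the hairpin difference was 0.35 ± 0.20.

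Cebpd, a C/EBP transcription factor of the acute-phase response, was higher on both NSCL61 arrays than on either NSC array. Its probe (chr16:15888459-15888518, plus strand, mm9) gave 5.97 on NSCL61-Ceacam1sh, 6.63 on NSCL61, 4.34 on NSC-Ceacam1L and 2.80 on NSC. Every neighbouring pair of arrays differed by more than the modelled error of 0.20. NSCL61 minus NSC was 3.83 ± 0.20 (14.2-fold), NSC-Ceacam1L minus NSC was 1.54 ± 0.20 (2.90-fold), and NSCL61-Ceacam1sh minus NSCL61 was -0.66 ± 0.20, which was -1.04 with quantile normalization.

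Bcl3, a nuclear IkB-family cofactor of NF-kB, was high on the hairpin array only. Its probe (chr7:20393826-20393885, minus strand, mm9) gave 1.79 on NSCL61-Ceacam1sh, -3.41 on NSCL61, -3.95 on NSC-Ceacam1L and -3.40 on NSC. NSCL61 and NSC differed by -0.01 ± 0.29, and NSC-Ceacam1L and NSC by -0.55 ± 0.31. NSCL61-Ceacam1sh exceeded NSCL61 by 5.20 ± 0.24, or 36.7-fold, more in size than 95.2% of genes. With normexp background correction this difference was 3.99.

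Pim1, a serine/threonine kinase that promotes survival, had low signals throughout. Its probe (chr17:29630740-29630799, plus strand, mm9) gave -1.97 on NSCL61-Ceacam1sh, -3.60 on NSCL61, -3.99 on NSC-Ceacam1L and -5.73 on NSC, where it was not well above background. The hairpin array was highest, 1.63 ± 0.25 above NSCL61 (3.1-fold), but with normexp background correction that difference was 0.72, within 2-fold. Taken as measured, NSC-Ceacam1L exceeded NSC by 1.74 ± 0.84 and NSCL61 exceeded NSC by 2.13 ± 0.84. As lower bounds these are at least 1.21-fold and at least 1.59-fold, so both counts past 2-fold rest on the dim NSC signal, and with normexp the differences were 0.20 and 0.55.

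**Figure D3:**
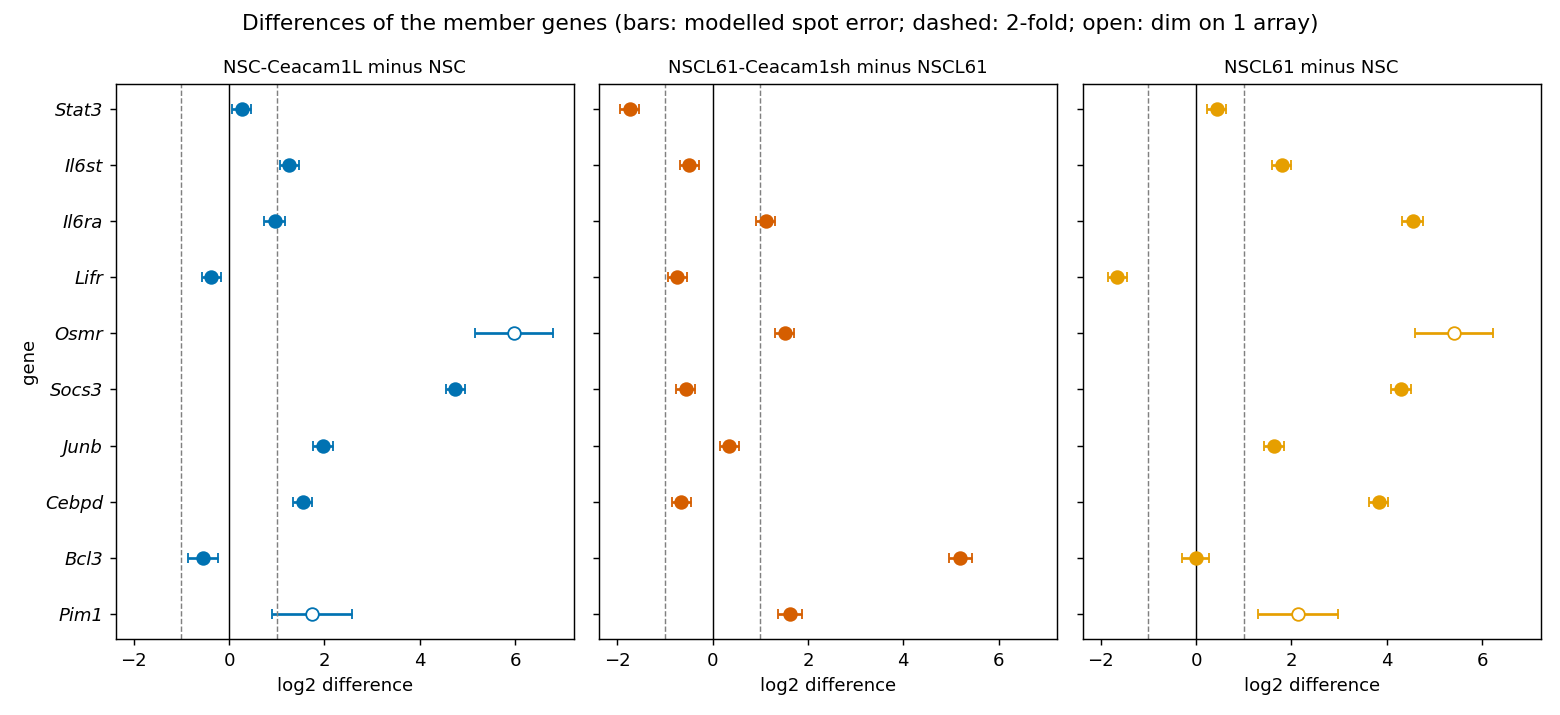
Log2 differences of the 10 genes in the 3 comparisons, with bars for the combined modelled spot error, dashed lines at 2-fold, and open points for genes not well above background on 1 of the arrays. Socs3 and Osmr lie far to the right in both comparisons with NSC, and Bcl3 in the hairpin comparison.

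Counted over the 10 genes, 6 were higher and 0 lower on NSC-Ceacam1L than on NSC: Il6st, Osmr, Socs3, Junb, Cebpd and Pim1. With Il6ra the count became 7 under median scaling and quantile normalization. Over all 15322 genes seen, 10.5% were higher and 6.04% lower (16.5% either way). The median difference was 1.40 for the 10 genes (1.11 with Osmr and Pim1 at their lower bounds) and -0.10 for all genes. Between NSCL61 and NSC, 7 were higher (these 6 and Il6ra) and 1 lower (Lifr), where 14.4% of 15307 genes were higher and 14.0% lower (28.3% either way). The medians were 1.96 for the 10 genes (1.71 with the bounds) and 0.03 for all genes. These 2 comparisons share the NSC array, so a low or high reading there enters both.

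Between NSCL61-Ceacam1sh and NSCL61, 4 of the 10 genes were higher (Il6ra, Osmr, Bcl3 and Pim1) and 1 was lower (Stat3), where 23.4% of 15616 genes were higher and 24.2% lower (47.7% either way). The median was -0.07 for the 10 genes and 0.01 for all genes. Under median scaling, which moves the median of all genes by 0.42, the median of the 10 genes became 0.35. The number higher with the hairpin was 3 with normexp, without Pim1, and 3 with quantile normalization, without Il6ra. Osmr and Pim1 were higher in both Ceacam1 comparisons, Pim1 in neither with normexp. Il6st, Socs3, Junb and Cebpd were higher with Ceacam1L and within 2-fold with the hairpin. With quantile normalization Cebpd was past 2-fold in opposite directions, at 1.79 with Ceacam1L and -1.04 with the hairpin, and otherwise 0 of the 10 genes were. Of 14357 genes seen in both comparisons, 2.31% were higher in both and 3.98% were lower with the hairpin but higher with Ceacam1L. The summed scaled signal of 8 astrocyte markers was 4.47 on NSCL61-Ceacam1sh, 1020 on NSCL61, 990 on NSC-Ceacam1L and 371 on NSC. On NSCL61 that sum is nearly all Aldoc, Apoe and Gfap. Each astrocyte marker was lower on NSCL61-Ceacam1sh than on NSCL61. Gja1 alone was higher on NSCL61-Ceacam1sh (1.14) than on NSC (-1.13), and Aldh1l1 alone was lower on NSCL61 (3.72) than on NSC (5.56). Gfap, which is also among the other STAT3 targets, S100b and Slc1a2 were not well above background on NSCL61-Ceacam1sh. Of 7 mesothelial and epithelial markers, 3 were well above background on NSCL61-Ceacam1sh, with a summed signal of 84.3 against 0.550 on NSCL61. That sum is nearly all Msln, at 6.39 on NSCL61-Ceacam1sh and -1.93 on NSCL61, while Krt8 went the other way (-3.96 and -2.18) and Upk3b, Krt18, Cdh1 and Epcam were not well above background on either. For 8 fibroblast markers the sums were 21.7 on NSCL61-Ceacam1sh, 0.399 on NSCL61, 13.6 on NSC-Ceacam1L and 2.35 on NSC, and Lum and Postn were not well above background on any array. On NSC-Ceacam1L that sum is nearly all Thy1 (3.71), which was at -6.73 and not well above background on NSCL61-Ceacam1sh, against -3.21 on NSCL61. Their part in the STAT3 pathway differences was not tested, and fewer cells of a type cannot be told apart from less RNA per cell.

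Of the 61 other genes of the pathway, 52 were seen on NSC-Ceacam1L or NSC, where 10 were higher and 1 lower with a median of 0.11, beside 10.5% and 6.04% of all genes. Between NSCL61 and NSC, 18 of 52 were higher and 5 lower (median 0.35), beside 14.4% and 14.0% of all genes. Between NSCL61-Ceacam1sh and NSCL61, 16 of 53 were higher and 11 lower (median 0.30), close to the 23.4% and 24.2% of all genes. These lists were chosen with earlier results of the same arrays known and are a description.

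Of 8 ligand genes seen, 6 were higher on NSCL61 than on NSC, beside 14.4% of all genes. Lif, the ligand of Lifr, gave -1.77 on NSCL61-Ceacam1sh, -0.85 on NSCL61, -5.68 on NSC-Ceacam1L and -6.19 on NSC, and was not well above background on either NSC array. It was at least 10.7-fold higher on NSCL61 than on NSC. Clcf1 was at least 10.4-fold higher on NSCL61 than on NSC and Il11 at least 9.70-fold higher. Ebi3, which pairs with Il27, was the 1 ligand gene lower on NSCL61 than on NSC, at least 4.64-fold. With the hairpin, Il6 was at least 126-fold higher on NSCL61-Ceacam1sh than on NSCL61, Il11 differed by 4.99 ± 0.21, Clcf1 by 3.1 ± 0.21 and Cntf by -3.67 ± 0.21. Osm, the ligand of Osmr, was not well above background on any array.

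Of 6 other receptor genes, 4 were seen with the hairpin, 3 of them lower and 1 higher, beside 24.2% lower and 23.4% higher of all genes. Cntfr, the CNTF-binding chain, was at least 25.3-fold lower on NSCL61-Ceacam1sh than on NSCL61, Il11ra1 differed by -3.84 ± 0.21 and Egfr by -3.02 ± 0.20, whereas the interleukin-10 receptor chain Il10rb differed by 1.53 ± 0.21. Between the NSC arrays, Cntfr differed by 1.37 ± 0.21 by its brightest probe, and its other probe gave -0.49.

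The 4 JAK kinase genes encode the enzymes that phosphorylate STAT3 at the receptor. In each comparison 1 of the 4 was past 2-fold, Jak3 in both comparisons with NSC and Jak2 with the hairpin. Of all genes, 16.5% were past 2-fold either way between NSC-Ceacam1L and NSC, and 28.3% between NSCL61 and NSC. With the hairpin this share was 47.7%. Jak1 gave 3.85 on NSCL61-Ceacam1sh, 3.43 on NSCL61, 3.20 on NSC-Ceacam1L and 2.67 on NSC, with no comparison past 2-fold. Jak2 was lower on NSCL61-Ceacam1sh than on NSCL61 by -1.84 ± 0.20, and Jak3 was at least 2.72-fold higher on NSC-Ceacam1L and at least 3.01-fold higher on NSCL61 than on NSC. Of the other STAT genes, Stat6 was at least 2.41-fold higher on NSC-Ceacam1L than on NSC, and Stat2 was lower with the hairpin (-1.77 ± 0.21).

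Of the inhibitor genes, 2 of 14 seen were higher on NSC-Ceacam1L than on NSC, beside 10.5% of all genes. They were Socs2 and, by its brightest probe, Socs6, whose 3 probes seen on both arrays ranged from -0.36 to 1.04. With the hairpin 5 of 15 were higher and 1 lower, beside 23.4% and 24.2%, and 3 of 14 were higher on NSCL61 than on NSC, beside 14.4%. Socs2 gave -2.25 on NSCL61-Ceacam1sh, 1.52 on NSCL61, 0.16 on NSC-Ceacam1L and -1.24 on NSC. Unlike Socs3, it was thus lowest on the hairpin array, 3.77 ± 0.22 below NSCL61, and it was higher by 1.39 ± 0.21 on NSC-Ceacam1L and by 2.76 ± 0.21 on NSCL61 than on NSC. Its 3 probes seen on both arrays went the same way in each comparison. Socs1 was higher on NSCL61 than on NSC by 3.22 ± 0.22, and Socs5 was higher with the hairpin by 2.22 ± 0.21. The phosphatase Ptpn11 ranged only from 5.10 to 5.29 over the 4 arrays.

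Of the other targets, 3 of 18 seen were higher and 1 lower on NSC-Ceacam1L than on NSC, beside 10.5% and 6.04% of all genes. With the hairpin 7 of 19 were higher and 4 lower, beside 23.4% and 24.2% of all genes. Between NSCL61 and NSC, 8 of 19 were higher and 3 lower, beside 14.4% and 14.0%. Gfap, the astrocyte filament gene that STAT3 activates in glia, gave -6.75 on NSCL61-Ceacam1sh, 7.97 on NSCL61, 4.32 on NSC-Ceacam1L and -3.01 on NSC. With the hairpin it was at least 6740-fold lower. It and Serpina3n were higher on NSC-Ceacam1L than on NSC and lower on NSCL61-Ceacam1sh than on NSCL61, as were Socs2 and, by its brightest probe only, Cntfr. These are 4 of 49 pathway genes seen in both comparisons, beside 3.98% of all genes. Ccnd1, cyclin D1, was lower by -1.13 ± 0.20 on NSC-Ceacam1L than on NSC and higher by 1.82 ± 0.20 with the hairpin. The mRNA-decay factor Zfp36 was higher by 2.97 ± 0.25 on NSC-Ceacam1L than on NSC. Ier3 gave 5.66 on NSCL61-Ceacam1sh, -6.67 on NSCL61, 0.79 on NSC-Ceacam1L and 1.77 on NSC, and only NSCL61 was not well above background. It was thus at least 1270-fold higher with the hairpin, but NSCL61 was itself at least 85.7-fold lower than NSC. Timp1, a metalloprotease inhibitor, differed by 7.01 ± 0.21 with the hairpin.

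**Figure D4:**
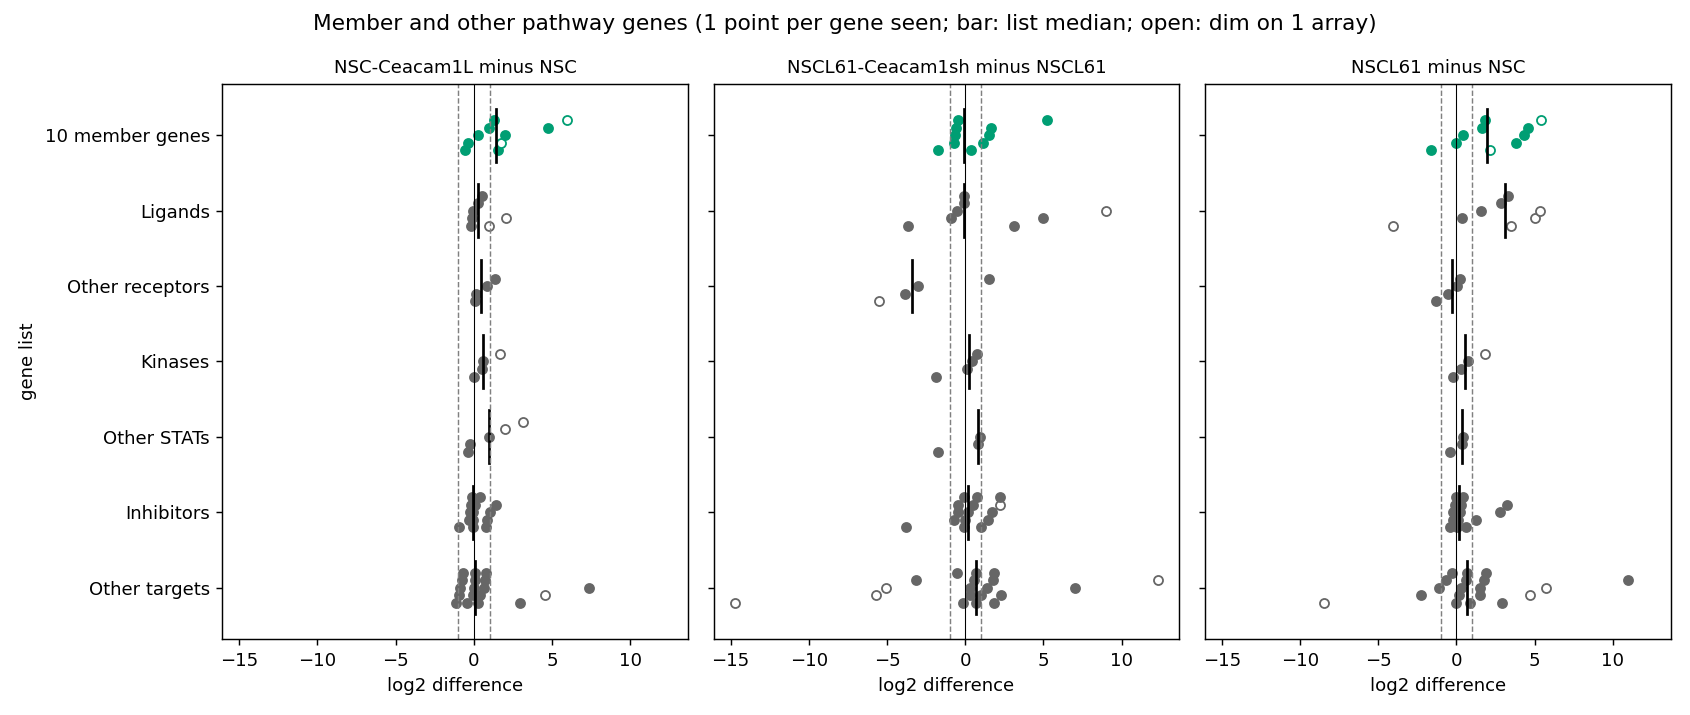
Log2 differences of the 10 genes (green) and of the other pathway genes by list (grey), 1 point per gene seen, with a bar at each list's median, dashed lines at 2-fold and open points for genes not well above background on 1 of the arrays. Ligands lie to the right in NSCL61 minus NSC, with a median of 3.1, and other receptors to the left in the hairpin comparison, with a median of -3.43 over 4 genes.

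The genes whose pattern over the 4 arrays was most like that of Socs3 were sought among 12473 genes well above background on all of them, by the Euclidean distance between values centred on each gene's mean. The nearest was Dysf, dysferlin, a membrane repair protein, at a distance of 1.05, followed by Pdgfrl (1.37), the gap junction gene Gja1 (1.49), the galectin Lgals2 (1.5) and Nacc2 (1.53). Dysf gave 0.55 on NSCL61-Ceacam1sh, 0.52 on NSCL61, 0.70 on NSC-Ceacam1L and -2.69 on NSC. Like Socs3, all 5 were lowest on NSC, which a choice by nearness to its pattern favours. Pdgfrl (-1.76), Gja1 (-1.26), Lgals2 (-1.11) and Nacc2 (-1.27) were past 2-fold lower with the hairpin. Dysf (0.03) and Socs3 (-0.56) were within 2-fold there. For Stat3 the nearest genes were the nuclear receptor coactivator Ncoa1 (0.02), Tfcp2 (0.06), Lysmd1 (0.08), Ikzf2 (0.10) and Abtb1 (0.10). Ncoa1 gave 1.49 on NSCL61-Ceacam1sh, 3.25 on NSCL61, 3.06 on NSC-Ceacam1L and 2.81 on NSC. With 4 arrays such likeness is a description of these values.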

How the data were processed

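RNA of 4 cultures, 1 array each, was measured. The authors deposited scanner files whose intensity values, already corrected for background on each array, were made with Agilent Feature Extraction 10.7.3.1, protocol GE1_107_Sep09, per the file headers; the submitters' processing notes name version 9.1. Signals in the deposited NSC file are rounded to 3 significant digits. It also has 58 changed gene names, and the names used are those of the NSCL61 file. Probe coordinates are on mm9, and exon or UTR annotation on that build was not used here. The authors' deposited table is on a log2 scale (slopes of 0.9999 against the scanner signals) with centring unknown, and served as an alternative.

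Each array's 59305 non-control spots were scaled by their 75th percentile and put on a log2 scale, without the 143 to 187 outlier spots per array. No spot was saturated. Spots of a probe were averaged, and a probe was well above background if at least 50.0% of its spots were by the deposited software flag. Probes were named through RefSeq (GRCm38.p6) by accession (27235), symbol (3581) or older symbol (565), and 24300 stayed unnamed. The brightest probe stood for a gene. The 10 genes, the pathway lists (61 genes) and the naming rule (at most 4 genes past 2-fold per list and comparison, the 5 nearest patterns to Socs3 and Stat3) were chosen with earlier results of these data known. Jak1, Osm, Ptpn11 and the marker genes were named after their values were seen. No test was run, since each group had 1 array. The scaling and calls were tried on simulated data with a small set of bright probes changed. That could not test them under broad change or on dim signals. limma 3.58.1 did the normexp correction (offset 50). Python 3.11.15 was used. Some genes of the lists are counted here but not reported by name.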

Additional observations from a re-analysis of the deposited data

How the results depend on the processing

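No paired analysis was possible because each group had 1 array, and no array could be left out. The 8 alternatives were another scaling (median, quantile), normexp, the deposited table, no or a stricter filter on dim probes, the mean of probes, and a 1.5-fold threshold. No difference of the 10 genes past 2-fold changed sign under any of them; Lifr with the hairpin (-0.74) became 0.58 with the mean of its probes. The hairpin median of the 10 genes became 0.35 under median scaling and 0.46 with the mean of all probes, and the number lower with the hairpin became 2 with quantile normalization and 3 at 1.5-fold. Over the alternatives 4 to 7 of the 10 genes were higher on NSC-Ceacam1L than on NSC, 3 to 4 with the hairpin and 5 to 7 on NSCL61 than on NSC. Normexp gave medians of 0.93 for NSC-Ceacam1L minus NSC and 1.55 for NSCL61 minus NSC, and 5 pathway genes higher on NSC-Ceacam1L than on NSC. Requiring both arrays well above background gave medians of 1.11 and 1.71 in the same comparisons, 5 pathway genes higher on NSC-Ceacam1L, 7 lower with the hairpin and 3 lower on NSCL61 than on NSC. At 1.5-fold, 18 pathway genes were higher and 6 lower on NSC-Ceacam1L. With the mean of all probes of a gene, 7 pathway genes were higher there than on NSC, against 10 by the brightest probe. The causes were not tested. The stricter filter evaluated fewer genes, since both arrays had to be well above background. The count of all genes past 2-fold was 741 higher and 523 lower on NSC-Ceacam1L with normexp, 889 and 628 with the stricter filter, and 2622 and 2573 at 1.5-fold, against 1603 and 926. Median scaling put 64.5% of hairpin calls higher, against 49.1%. Dim signals limit Pim1 and Osmr on NSC. Over the alternatives, Osmr on NSC-Ceacam1L minus NSC ranged from 3.20 to 6.09 and Pim1 from 0.20 to 1.81.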
